A study of Rattus norvegicus with 30 samples.

Results

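The pan H4 ChIP-seq of the E14.5 rat embryo cortex was compared between embryos of HFD and Control dams. Its members were the 6 libraries that the labels assign to the antibody pan H4, 3 per diet, out of 30 libraries made with 5 antibodies. The dams were Wistar rats, fed either normal chow (Control) or a commercial diet with 60% of its calories from fat (HFD) before and during gestation, and no genetic change or treatment of the embryos other than the diet of the dam is named. The 3 libraries of a diet were pooled by the authors into 1 peak list per antibody, which makes 10 lists, and no value of a single library could be read from them. Per the methods, the frontal lobe cortices of a whole litter were combined as the material of 1 replicate. A difference between the diets therefore could not be set against the spread between replicates, no test was possible, and the 95% Wilson intervals beside the shares hold the counting error alone.

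Histone H4 pairs with H3, and both are part of the core of every nucleosome, so that an antibody against all forms of H4 reports where nucleosomal DNA was recovered rather than a particular mark. H3K4me3 is a modification found at the start sites of active and poised genes. The acetylation H4K16Ac goes along with open chromatin, and H3K27me3 is the mark that Polycomb complexes place at silenced developmental genes.

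The unit of description was the interval, a distinct start and end in a list, because the peak caller lists an interval once for each of its summits. Control pan H4 had 196878 intervals and HFD pan H4 had 197410, a ratio of 1.003, and together they were 394288 of the 1417597 intervals in the 10 lists. For each summit the lists give a fold enrichment, which is the pileup of fragments at the summit over the local background with 1 added to both, together with −log10 values of p and q. The 2 lists thus held nearly the same number of regions, but not regions of the same strength. The median summit fold enrichment was 3.53 in Control, with quartiles of 2.79 and 4.90, and 4.29 in HFD, with quartiles of 3.21 and 6.36. The median pileup, solved from fold enrichment and p, was 12 fragments in Control and 17 in HFD. The most frequent background pileup was 1.64 and 1.8 fragments, a ratio of 1.10, so that the pileup at summits differed more than the background did. For total H3 the most frequent background differed by a similar ratio of 1.11, while its median pileup was 11 fragments in both diets. The sequencing depth of the lists is not known, and its part in these values was not tested. Intervals with a −log10 q of at least 5 numbered 67714 in Control and 114269 in HFD, a ratio of 1.69, against 72019 and 75953 for total H3 and 31019 and 31060 for H3K4me3.

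Interval width differed little. Control intervals had a median width of 477 bp, with quartiles of 359 and 723 bp, and HFD intervals one of 488 bp, with quartiles of 372 and 740 bp. The mean was 595 ± 336 bp (SD over 196878 intervals) in Control and 609 ± 343 bp (SD over 197410 intervals) in HFD. The HFD median lay above that of Control by a ratio of 1.02, and the corresponding ratios were 0.98 for total H3 and 0.970 for H3K4me3. The direction of this ratio depended on the threshold of the lists, since it was 0.966 among intervals with a −log10 q of at least 2 and 0.844 at 5 or more, where the HFD list held many more intervals. At the lower end of the range 12295 Control intervals (6.24%) and 8951 HFD intervals (4.53%) were under 300 bp. At the upper end 1145 Control intervals and 1344 HFD intervals were 2000 bp or wider, and the widest spanned 4146 and 4656 bp. The intervals covered 117.1 Mb in Control and 120.2 Mb in HFD, which is 4.09% and 4.20% of the spanned sequence.

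Intervals with several summits were more frequent in HFD. Of the Control intervals 22638, or 11.5% (95% interval 11.4 to 11.6%), had 2 or more summits. In HFD there were 27047, or 13.7% (95% interval 13.5 to 13.9%), a ratio of 1.19. The share was lower in HFD than in Control for total H3, at 11.7% in Control and 11.2% in HFD, and was 7.56% and 7.50% for H3K4me3. The highest number of summits in 1 pan H4 interval was 8 in Control and 9 in HFD. With a −log10 q of at least 2 the ratio of the pan H4 shares was 1.10, and with at least 5 it turned to 0.933.

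Wide intervals hold more summits, so the share was also taken within classes of width. Among intervals of 900 to 1200 bp, 41.5% of 17419 had 2 or more summits in Control and 50.05% of 18448 in HFD. The shares were 13.6% and 16.2% at 600 to 900 bp, and 68.7% and 75.9% at 1200 to 1500 bp. HFD was thus higher at equal width in the range from 600 to 2000 bp. From 2000 bp upward nearly every interval had several summits, with 98.0% in Control and 97.9% in HFD. Neighbouring summits of an interval lay a median of 474 bp apart in Control (27880 gaps) and 488 bp in HFD (33786 gaps), and the most frequent gap was between 360 and 380 bp in both.

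**Figure D1:**
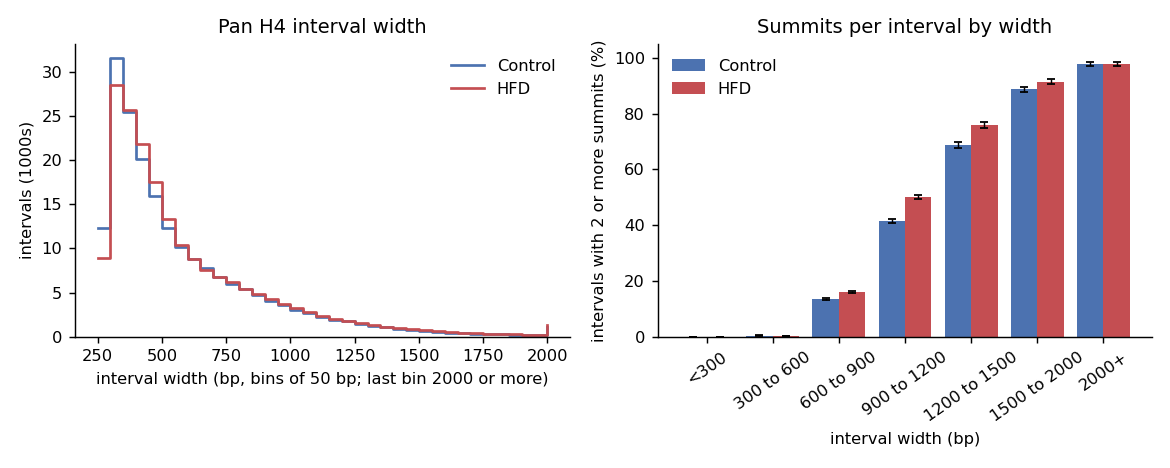
Left, number of pan H4 intervals (in units of 1000) against width in bins of 50 bp, with all intervals of 2000 bp or more in the last bin, for Control (blue) and HFD (red). Right, percent of intervals with 2 or more summits in each width class, with 95% Wilson intervals as bars; the HFD bars stand above the Control bars from 600 to 2000 bp, as in 50.05% against 41.5% at 900 to 1200 bp.

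The widest and the most divided regions of each list also held intervals of the other. In Control the 3 widest intervals were chr2:193779327-193783472 (4146 bp, 4 summits), chr20:46426101-46430050 (3950 bp, 6 summits) and chr6:126928823-126932692 (3870 bp, 7 summits), in coordinates of rn6. In HFD they were chr12:51247241-51251896 (4656 bp, 7 summits), chr6:126928577-126932718 (4142 bp, 9 summits) and chr1:181943012-181947079 (4068 bp, 8 summits). The region on chromosome 6 was among the 3 widest of both lists, with its strongest summit at 126931205 in Control and at 126931200 in HFD. The HFD interval on chromosome 1 overlapped 5 separate Control intervals. The Control intervals with the most summits, 8 each, were chr1:187897865-187901697, chr5:114012083-114015425 and chr10:37311981-37315811. The last of these was found in HFD as chr10:37312100-37315850 with 9 summits, the same number as in chr9:88084153-88087466 and in the chromosome 6 region. All of these regions overlapped total H3 and H4K16Ac of the same diet, and their strongest summits lay between 5 and 1737 bp from an H3K4me3 summit. They were wide rather than strong, since their highest fold enrichment was 5.34.

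Most pan H4 intervals were found in both diets. With an overlap of at least 1 bp, 138953 Control intervals (70.6%) met an HFD interval, and 138678 HFD intervals (70.2%) met a Control interval. The shares were 71.8% and 68.6% for total H3 and 54.9% and 57.7% for H3K4me3. Splitting and joining was rare, as 1564 Control intervals met 2 or more HFD intervals and 1824 HFD intervals met 2 or more Control intervals. Intervals that met exactly 1 of the other list, in both directions, numbered 133785 and are called shared below.

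Summits at shared intervals lay close together. The strongest summits of the diets were a median of 42 bp apart, with quartiles of 17 and 101 bp, and 100206 of the 133785 pairs, or 74.9% (95% interval 74.7 to 75.1%), were within 100 bp. The shift had no direction along the chromosome, with a signed median of 0 bp and quartiles of −41 and 42 bp. For total H3 the median distance was also 42 bp, with 75.1% within 100 bp, and for H3K4me3 it was 53 bp with 68.2%. Pan H4 summits were therefore displaced between the diets by about as much as those of total H3.

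The size of the shift followed the strength of the summit and the number of summits. The mean fold enrichment of a shared interval, here and below, is the geometric mean of the values of both diets. The median distance was 92 bp where this mean was under 3, 46 bp from 3 to 5, 33 bp from 5 to 8, and 25 bp at 8 or more. Among the 103101 shared intervals with 1 summit in both diets, 80.7% of the pairs were within 100 bp. Among the 30684 with several summits in either diet, 55.3% were within 100 bp and 12.7% were more than 500 bp apart. Larger shifts were thus more frequent in intervals with several summits, and taking the nearest pair of summits in place of the strongest brought 82.0% of all pairs within 100 bp.

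**Figure D2:**
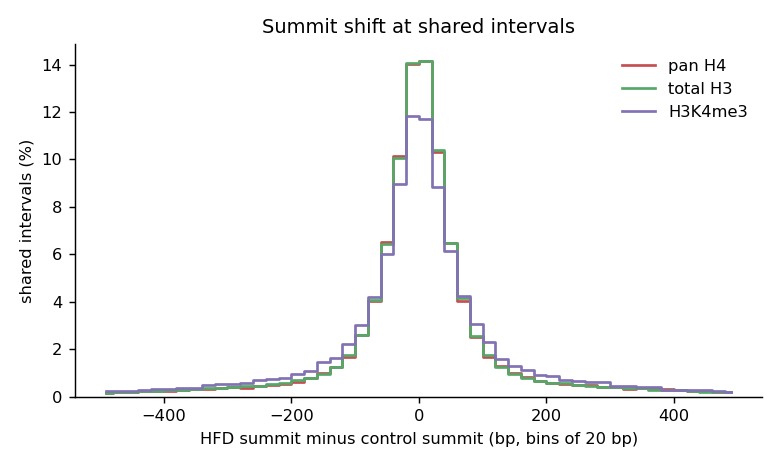
Percent of shared intervals against the position of the strongest HFD summit minus that of the strongest Control summit, in bins of 20 bp, for pan H4, total H3 and H3K4me3. The pan H4 and total H3 curves lie on each other, with a median distance of 42 bp for both, and H3K4me3 is wider at 53 bp.

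Although the shift had no side along the chromosome, HFD summits lay slightly nearer to nearby H3K4me3 summits and to total H3 summits. Among shared intervals within 2500 bp of a Control H3K4me3 summit in both diets, the pan H4 summit lay nearer to it in HFD in 47945 of 89587 pairs with unequal distances, or 53.5% (95% interval 53.2 to 53.8%). Its median distance was 82 bp (Control) and 71 bp (HFD). The HFD list of H3K4me3 gave 54.5%, with medians of 81 and 67 bp. Beyond 2500 bp the share was 49.6%. Within 2500 bp the median change in distance was −3 bp with the Control and −4 bp with the HFD list of H3K4me3. The smaller distance was thus a matter of a few base pairs with either list. These distances carry no sign, so they do not show that summits moved in the direction of H3K4me3.

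For total H3 the same comparison gave a larger share. At 106803 shared intervals that overlapped a Control total H3 interval in both diets, the pan H4 summit was a median of 48 bp (Control) and 38 bp (HFD) from the total H3 summit, and 71.7% and 77.1% of the summits were within 100 bp. It was nearer in HFD in 56.1% of the pairs with unequal distances (95% interval 55.8 to 56.4%). With the HFD list of total H3 it was nearer in 57.7%. The higher pileup of the HFD summits, given below, went along with these distances, and its part in them was not tested.

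Relative to H3K4me3 the pan H4 list of either diet had nearly the same position. The strongest summit was within 2500 bp of an H3K4me3 summit of the same diet in 114431 Control intervals, or 58.1% (95% interval 57.9 to 58.3%), and in 115522 HFD intervals, or 58.5% (95% interval 58.3 to 58.7%). These windows made up 17.9% and 16.9% of the spanned sequence, so that pan H4 was found there 3.25 and 3.46 times as often as their length alone would give. The ratio of the shares was 1.01 over the whole lists. With both pan H4 and H3K4me3 limited to a −log10 q of 2 or more it was 0.921, and with 5 or more it was 0.653. With the limit on pan H4 alone and all H3K4me3 summits kept, it was 0.958 at 2 or more and 0.878 at 5 or more, where 81.0% of the Control and 71.1% of the HFD intervals were near H3K4me3. The direction of the comparison thus depended on the threshold, at which the HFD list held more intervals.

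Close to the H3K4me3 summit the HFD summits were more concentrated. In the classes of distance that follow the upper bound is included. Within 100 bp lay 28.1% of the Control and 31.1% of the HFD intervals, and at 100 to 500 bp 13.7% and 11.7%. The shares were 16.3% and 15.8% at 500 to 2500 bp, 25.3% and 24.0% at 2500 to 10000 bp, 14.3% and 15.0% at 10000 to 50000 bp, and 2.19% and 2.39% farther out. Around the H3K4me3 intervals with a −log10 q of at least 5, Control pan H4 had 557 summits per 1000 intervals and 100 bp within the first 50 bp, and HFD had 615. At 250 to 300 bp the order was the opposite, with 43.5 in Control and 36.8 in HFD. For total H3 the same values were 590 and 576 in the first 50 bp and 43.1 and 50.2 at 250 to 300 bp. The diets differed in opposite directions for the 2 histones, with HFD pan H4 the more concentrated and HFD total H3 the less.

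**Figure D3:**
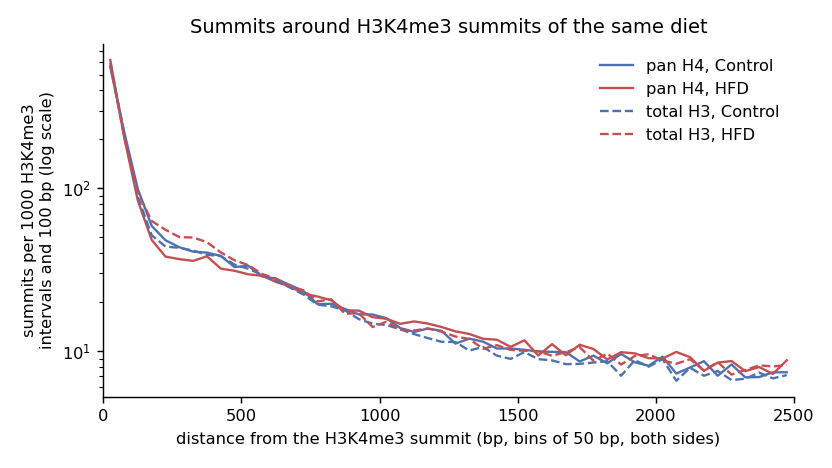
Number of summits per 1000 H3K4me3 intervals and 100 bp (log scale) against the distance from the H3K4me3 summit of the same diet in bins of 50 bp, for pan H4 (solid) and total H3 (dashed) in Control (blue) and HFD (red). The HFD pan H4 line starts highest, at 615, is already the lowest at 50 to 100 bp, at 207, and is also the lowest at 250 to 300 bp, at 36.8.

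The form of the intervals changed with the distance to H3K4me3. Intervals within 100 bp had median widths of 620 bp (Control) and 617 bp (HFD), and those at 100 to 500 bp had 717 and 774 bp. Beyond 500 bp the medians were between 393 and 430 bp in both diets. Several summits were most frequent at 100 to 500 bp, in 26.0% of the Control and 30.6% of the HFD intervals, and fell to 2.03% and 3.14% at 10000 to 50000 bp. Intervals were thus widest and most often divided where the strongest summit lay 100 to 500 bp from that of H3K4me3. The median pileup fell from 18 fragments in Control and 26 in HFD within 100 bp to 9 and 10 at 10000 to 50000 bp.

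The overlap with total H3 was larger in HFD. In Control 125451 pan H4 intervals, or 63.7% (95% interval 63.5 to 63.9%), overlapped a total H3 interval of the same diet, and in HFD 140164, or 71.0% (95% interval 70.8 to 71.2%), a ratio of 1.11. Total H3 covered 3.35% and 3.45% of the spanned sequence. With the Control list of total H3 for both diets the shares were 63.7% and 66.7%, and with the HFD list they were 63.8% and 71.0%. Part of the difference therefore lay in the total H3 list used. When all lists were limited to a −log10 q of 5 or more the ratio was 0.833, in the opposite direction, and at 2 or more it was 1.02. With only pan H4 limited to 5 or more it was 0.975.

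The intervals were also divided by both antibodies. Those that overlapped H3K4me3 and total H3 were 38.04% of the Control and 39.8% of the HFD list, with median fold enrichments of 4.91 and 6.28. Those with total H3 but without H3K4me3 were 25.7% of the Control and 31.2% of the HFD list, with 3.41 and 4.10. Those with neither were 59761 in Control (30.4%) and 47448 in HFD (24.0%), and they were weak and narrow, with fold enrichments of 3.03 and 3.21 and median widths of 371 and 368 bp. The HFD list thus held more intervals in the class that shared total H3 alone and fewer in the class that shared neither. Seen from the other side, 98.5% of the Control and 99.1% of the HFD H3K4me3 intervals with a −log10 q of at least 5 overlapped pan H4 of the same diet, as did 92.1% and 97.1% of the total H3 intervals at that threshold.

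At shared intervals the HFD summit was the stronger one in most cases. The median fold enrichment over the 133785 shared intervals was 4.04 in Control and 5.06 in HFD, and the ratio within an interval had a median of 1.22, with quartiles of 1.01 and 1.51. HFD was above Control in 76.1% of them. Past 1.5-fold, 33961 intervals (25.4%) were higher in HFD and 3943 (2.95%) were lower. For total H3 the median ratio was 0.994, with 9722 shared intervals (8.25%) higher and 10544 (8.95%) lower past 1.5-fold. For H3K4me3 it was 0.978, with 4502 (7.41%) higher and 4422 (7.28%) lower. At H3K4me3 summits with a mean fold enrichment of 12 or more the median ratio was 0.929, and HFD was above Control in 27.03% of them. Over all shared intervals the pan H4 ratio was thus the farthest from 1 of the 3 antibodies, in these pooled lists without a replicate check.

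**Figure D4:**
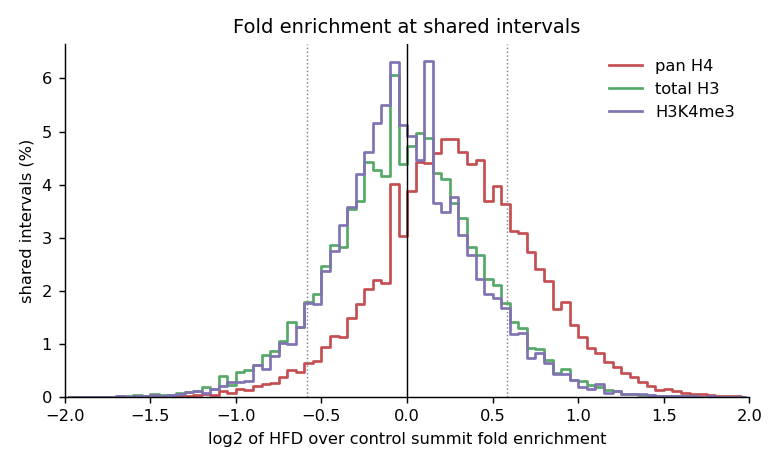
Percent of shared intervals against the log2 of HFD over Control summit fold enrichment, in bins of 0.05, for pan H4, total H3 and H3K4me3, with a solid line at equality and dotted lines at 1.5-fold in either direction. The pan H4 curve lies to the right of the other 2, with 25.4% of the intervals past the upper and 2.95% past the lower dotted line.

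The 2 parts of the fold enrichment were then read apart. The median pileup at shared pan H4 summits was 14 fragments in Control and 20 in HFD, with a median ratio of 1.35, and the median ratio of the local background was 1.10. Dividing the recovered pileup by its background, without the 1 that is added to both, also gave a median ratio of 1.22. The local background differed most at the strongest summits, where its ratio was 1.28 at a mean fold enrichment of 12 or more. The ratio of the pileup there was 1.43. The fold enrichment ratio was highest, at 1.31, for a mean fold enrichment of 5 to 8, and it was 1.13 both under 3 and at 12 or more. The pileup of HFD was thus higher over the whole range of strengths, and at the strongest summits the local background was higher as well.

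Total H3 gave a direct reference at the same places. At 91886 shared pan H4 intervals that overlapped a shared total H3 interval, the median ratio was 1.26 for pan H4 and 0.996 for total H3, and the pan H4 ratio was the larger one in 74.6% of them. Past 1.5-fold higher were 27.8% of the pan H4 and 8.18% of the total H3 values, beside 25.4% and 8.25% over all shared intervals. The displacement of pan H4 was therefore present at sites where total H3 had the same median in both diets.

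The ratio varied with position by less than its own spread. Shared intervals within 100 bp of an H3K4me3 summit of either list had a median ratio of 1.24, and those at 100 to 500 bp also had 1.24. The median was 1.20 at 500 to 2500 bp, 1.18 at 2500 to 10000 bp and 1.12 at both larger distances, while the quartiles within 100 bp were 1.04 and 1.52. Up to 2500 bp 26.0% of the intervals were higher past 1.5-fold and 2.40% were lower, and beyond it 22.7% were higher and 5.34% were lower, beside the 25.4% and 2.95% of all shared intervals. The share of higher intervals was thus close to that of all shared intervals on both sides of 2500 bp, while the share of lower ones was larger beyond it.

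**Figure D5:**
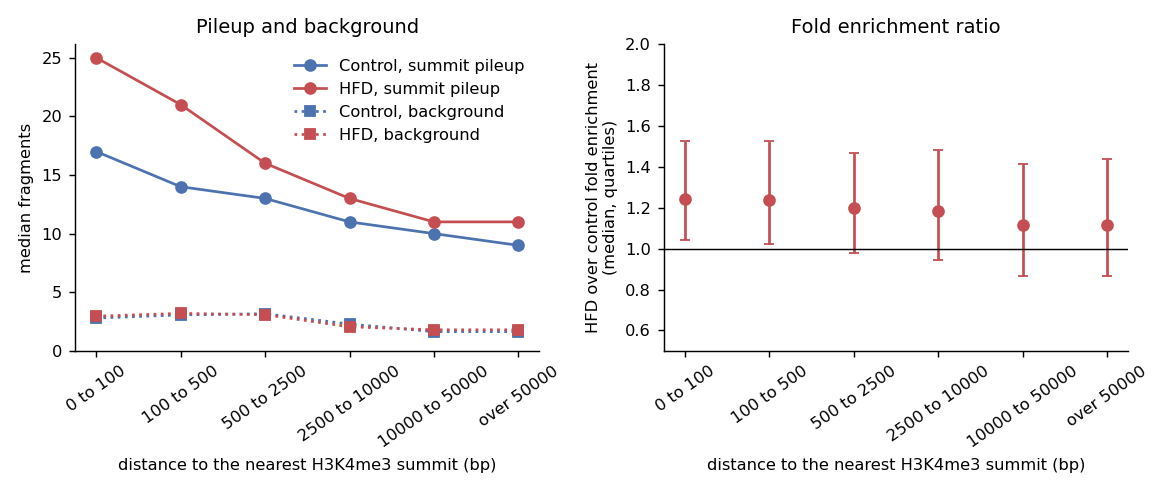
Shared pan H4 intervals by the distance of the Control summit to the nearest H3K4me3 summit. Left, median summit pileup (circles, solid) and median local background (squares, dotted) in fragments for Control (blue) and HFD (red); right, median ratio of HFD over Control fold enrichment with its quartiles as bars, from 1.24 within 100 bp to 1.12 beyond 10000 bp.

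Between shared intervals with total H3 or H4K16Ac in both diets and in neither, the median ratio differed more than between the classes of distance. Intervals with the antibody in 1 diet are left out here. Where total H3 was present in both diets (94667 intervals) the median ratio was 1.26, with 27.7% higher and 1.81% lower past 1.5-fold. Where it was present in neither (11189 intervals) the median was 1.06, with 13.9% higher and 7.32% lower. The median pileup there was 9 fragments in Control and 10 in HFD, against 17 and 24 with total H3 in both diets. With H4K16Ac in both diets (115963 intervals) the median ratio was 1.25, and with H4K16Ac in neither (3942 intervals) it was 0.985, with 9.11% higher and 10.1% lower. The displacement of the whole list was therefore not seen at the few shared intervals without H4K16Ac, where the median pileup was 9 fragments in both diets. With H4K16Ac in both diets it was 15 fragments in Control and 22 in HFD. These classes thus also differed in pileup, and its part in the ratios was not tested. At the 49230 shared intervals that overlapped Control H3K27me3 the median ratio was 1.21, near the 1.22 of all shared intervals.

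Width and summit number at shared intervals followed the lists. Shared intervals had median widths of 553 bp (Control) and 562 bp (HFD), with a median ratio of 1.02, and HFD was the wider in 53.2% and the narrower in 46.5%. HFD had more summits than Control in 11963 shared intervals (8.94%), Control had more in 9107 (6.81%), and 112715 had equal numbers. The excess lay at intervals with a mean fold enrichment under 5. With a mean fold enrichment under 3, HFD had more summits in 11.9% and Control in 3.86% of the intervals. From 3 to 5 the values were 8.80% and 5.91%. At 5 to 8 the values were 8.53% and 9.15%, so that the order was the opposite there.

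The shared regions with the largest and smallest ratios were named among 56279 with a −log10 q of at least 5 in both diets, whose median ratio was 1.19. The largest was 3.35 at chr3:96716743-96717265, where the fold enrichment was 4.92 in Control and 16.5 in HFD, on 12 and 47 fragments. The next were 3.09 at chr2:140166603-140166997, on 14 and 49 fragments, and 3.05 at chr15:68818652-68819293, on 12 and 41 fragments. The smallest was 0.381 at chr13:26553089-26553570, with 13.5 in Control and 5.16 in HFD, on 72 and 20 fragments. It was followed by 0.383 at chr15:5420661-5421205, on 59 and 21 fragments, and 0.387 at chr2:262770838-262771438, on 61 and 19 fragments. The coordinates are those of the Control intervals. All 6 regions lay within 200 bp of an H3K4me3 summit and overlapped total H3 and H4K16Ac in both diets, as did most of the 56279, of which 82.3% lay within 200 bp of H3K4me3, 91.5% overlapped total H3 and 97.6% overlapped H4K16Ac in both diets. They are the extremes of the list and have no replicate check.

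Intervals found in 1 diet were weaker than those that met an interval of the other diet, whose median fold enrichment was 3.99 on 14 fragments in Control and 4.999 on 20 fragments in HFD. The 57925 intervals of Control alone (29.4%) had a median fold enrichment of 3.01 and a median pileup of 8 fragments. The 58732 of HFD alone (29.8%) had 3.21 and 11 fragments. A −log10 q of at least 5 was reached by 3533 of the former (6.10%) and by 16580 of the latter (28.2%). Of the intervals that met the other diet, 46.2% in Control and 70.4% in HFD reached it. At least 10 was reached by 232 intervals of Control alone (0.401%) and 3470 of HFD alone (5.91%). Among those that met the other diet it was reached by 23.3% and 43.0%. The strong intervals of 1 diet were thus mostly intervals of HFD, and HFD was also higher among intervals that met the other diet. The median widths of the intervals of 1 diet were 369 and 381 bp, and 98.99% and 96.7% of them had a single summit.

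The intervals of HFD alone also met the other antibodies more often. A total H3 interval of the same diet was overlapped by 24.6% of the Control-only and 44.0% of the HFD-only intervals, and a total H3 interval of the other diet by 19.6% and 34.8%. H4K16Ac of the same diet was met by 44.6% and 66.2%. Over the whole lists of Control and HFD the shares were 63.7% and 71.0% for total H3 and 77.9% and 84.5% for H4K16Ac of the same diet. Among intervals that met the other diet they were 80.0% and 82.4% for total H3 and 91.8% and 92.2% for H4K16Ac. HFD was thus also the higher over the whole lists, and both sets of 1 diet lay below them. The summit was within 2500 bp of H3K4me3 in 33.4% and 39.9%, against 68.4% and 66.4% of all intervals that met one of the other diet. With total H3 and H4K16Ac lists of the opposite diet the order of the diets was the same, with 34.9% and 59.7% for H4K16Ac.

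The strongest intervals of Control alone were chr3:174540822-174541117, with a fold enrichment of 20.9 on 104 fragments, chr7:11286237-11286528, with 7.53 on 111 fragments, and chr12:34332790-34333117, with 17.2 on 53 fragments. Those of HFD alone were chr12:13945270-13945619, with 20.3 on 248 fragments, chr6:28614235-28614533, with 16.7 on 157 fragments, and chr9:75243081-75243551, with 23.6 on 122 fragments. The HFD regions lay 1 to 6 bp from an H3K4me3 summit of HFD, while the Control regions lay 5, 4485 and 19635 bp from one of Control. These 6 intervals were 292 to 471 bp wide with 1 summit each, and all overlapped H4K16Ac of their diet. Total H3 of the same diet was overlapped by chr3:174540822-174541117 in Control and chr12:13945270-13945619 in HFD, and by none of the others. The 6 intervals are extremes of their lists and have no replicate check.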

How the data were processed

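ChIP-seq was done with pan H4, total H3, H3K4me3, H4K16Ac and H3K27me3 antibodies, in 3 libraries per diet, on chromatin fragmented by sonication. Reads were mapped by the authors with Bowtie2 (build rn6), peaks came from MACS2, and the submitters' processing notes also name deepTools. The authors state recommended options for MACS2 and deepTools. Versions, the options themselves and whether an input was used are not given in the sources used here. The deposited lists give positions and summit offsets, a fold enrichment (a ratio to the local background), a −log10 p-value and a score that is the −log10 of the q-value, all made by the authors from the pooled libraries of a diet. The weakest peaks listed had a −log10 q of 0.301, so the whole lists are permissive and include weakly supported peaks. Pan H4 intervals with a −log10 q of at least 2 numbered 141360 of 196878 in Control and 168646 of 197410 in HFD. In the H4K16Ac and H3K27me3 lists, which are broad, only positions were used. The third Control library of total H3 bears the names of both diets in its labels, and its title and list placed it in Control.

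Rows with equal coordinates were joined into 1 interval, represented by the summit with the highest −log10 p. Overlap required 1 bp. Distances ran between the strongest summits, with a window of 2500 bp. A call was a fold enrichment ratio past 1.5. Pileup and background were solved from fold enrichment, (pileup + 1) / (background + 1), and the Poisson p. The pileup was whole within 0.02 at 100% of Control and 99.999% of HFD pan H4 intervals. Regions were named on 22 chromosomes (1 to 20, X and Y), 3 per rule: the widest, those with the most summits, those of 1 diet with the highest −log10 q, and the largest and smallest fold enrichment ratios at a −log10 q of at least 5. No gene is named, because no rn6 annotation was used here. The depth of single libraries is unknown. The overlap, distance and pileup functions were tested on simulated data. The tools were matplotlib 3.10.9, scipy 1.17.1, pandas 2.3.3, numpy 2.4.6 and Python 3.11.15. The members and lists were chosen with earlier results of these data known.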

Additional observations from a re-analysis of the deposited data

How the results depend on the processing

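Of 58 alternatives over 8 results, 42 kept the direction and size, 6 moved the value and 10 turned its direction, and the thresholds accounted for most of the changes. When every list was limited to a −log10 q of 5 or more, HFD over Control was 0.844 for median width, 1.69 for the number of intervals, 0.933 for the share with 2 or more summits, 0.595 for the share found in the other diet, 0.653 for the share within 2500 bp of H3K4me3 and 0.833 for the share overlapping total H3, and 82.1% of the shared summits were within 100 bp. The HFD list then held 1.69 times as many intervals as the Control list. With at least 2, the ratio was 0.966 for width and 0.921 for H3K4me3, and 79.4% of the summits were within 100 bp. That share was 82.0% for the nearest pair of summits and 80.7% for intervals with 1 summit in both diets. Further alternatives were chosen after seeing the data. The number ratio was 0.994 on chromosomes 1 to 20. With a limit on pan H4 alone, the ratio for H3K4me3 was 0.958 at 2 or more and 0.878 at 5 or more, and that for total H3 was 0.975 at 5 or more. The cause of these changes was not tested. The median fold enrichment ratio stayed between 1.18 and 1.23 in its 8 alternatives. No pair of intervals of a list lay under 200 bp apart, so that merging could change no value, and its runs are among the 42 counted as kept. No paired analysis was possible because each list pools the 3 libraries of a diet, and for the same reason no replicate could be left out. The median pileup of the intervals of Control alone was 8 fragments, and what more depth would show there was not tested.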

Other observations

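The pan H4 difference was seen on each of the 20 autosomes. The median fold enrichment ratio at shared intervals was between 1.18 on chromosome 2 and 1.28 on chromosome 12 and was above 1 on 20 of 20, while that of total H3 was between 0.947 and 1.04 on the same 2 chromosomes. The HFD median width was larger on 20 of 20 autosomes, by 1 to 19 bp, and the share of intervals with 2 or more summits was higher on 20 of 20, by 1.11 to 3.89 percentage points. The number of intervals did not move in 1 direction, with ratios between 0.941 on chromosome 15 and 1.06 on chromosome 12, above 1 on 7 of 20. The autosomes come from the same pooled libraries and are not replicates.

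Chromosome X stood apart in number. Pan H4 had 4472 intervals there in Control and 5693 in HFD, a ratio of 1.27, above that of every autosome. Interval ratios on X were 1.42 for total H3, 1.24 for H3K4me3 and 1.16 for H4K16Ac. The highest autosome had 1.12, 0.984 and 1.05. For H3K27me3 the ratio on X was 0.814, within the autosome range of 0.740 to 0.952. The median background ratio at shared pan H4 summits was 1.16 on X, where the autosomes had 1.06 to 1.10, and the median pileup ratio was 1.47, where they had 1.33 to 1.38. The fold enrichment ratio on X was 1.17. Y had 76 intervals in Control and 118 in HFD. The sex of the embryos in each library was not given in the labels used here, and its part in these values was not tested.

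Unplaced scaffolds held 1272 Control intervals (0.646%) and 1779 HFD intervals (0.901%). At the 996 shared intervals on them the median fold enrichment ratio was 1.13, the median pileup ratio was 1.5 and the median background ratio was 1.22.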
